A study of Homo sapiens with 12 samples.

Results

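The messenger RNAs of the core microRNA machinery were followed as 10 genes: DROSHA and DGCR8, XPO5, DICER1, TARBP2 and PRKRA, and the Argonaute genes AGO1, AGO2, AGO3 and AGO4. They were chosen by name for their roles in making and using microRNAs, with earlier results of these data known. All 10 had a count in each of 12 libraries, among 15414 genes listed in exosomes, cells or both. The libraries came from AC16, an immortal human line obtained by fusing ventricular muscle cells of an adult heart with a transformed fibroblast line, and from the small membrane vesicles (exosomes) that AC16 releases. The labels gave 4 groups of 3 libraries: exosomes labelled Ang, exosomes labelled Con, whole cells labelled Ang and whole cells labelled Con. They do not spell out Ang or Con and give no agent, dose, time or genetic change, and nothing in them says that the 3 libraries of a group are separate cultures. A p-value here therefore sets a difference against a spread between libraries that could be technical only. Per the labels' protocols, exosome RNA (exoRNeasy Maxi extraction, SMARTer Stranded Total RNA libraries) and cell RNA (miRNeasy Micro extraction, VAHTS Universal libraries) were handled with different kits, so kit and compartment cannot be told apart. The series' design text names microRNAs of exosomes from hypertrophic heart muscle cells as its subject; small RNAs were not analysed here, and the values below are of the messages that encode the machinery.

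A microRNA starts as a hairpin in a longer nuclear transcript. The nuclease DROSHA and its RNA-binding partner DGCR8 (together the Microprocessor) cut the hairpin out, exportin-5 (XPO5) carries it to the cytoplasm, and the nuclease DICER1 trims it to a short duplex with the help of the RNA-binding proteins TARBP2 and PRKRA. An Argonaute protein then keeps a single strand and uses it to find messages to silence; of the human Argonautes, AGO2 is the one best known for cutting its targets. Argonaute-bound microRNAs are among the small RNAs reported in extracellular vesicles.

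DGCR8 has a tie to this pathway in its own sequence, since its message carries microRNA hairpins that the Microprocessor can cut, a known feedback on DGCR8 itself. The mature microRNAs of these hairpins are shown because they mark where in the counted gene this cut falls. In the RefSeq annotation (GRCh38.p14), miR-3618 lies at chr22:20085797-20085818, and the arms of miR-1306 at chr22:20086072-20086093 and chr22:20086112-20086129, all on the plus strand. In GENCODE release 29 all 3 lie in exons of DGCR8, miR-3618 outside the coding part and both miR-1306 arms inside it. Capitals mark the seed, bases 2 to 8, and the seeds of the 3 differ.
hsa-miR-3618: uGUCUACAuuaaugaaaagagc
hsa-miR-1306-5p: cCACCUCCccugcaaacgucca
hsa-miR-1306-3p: aCGUUGGCucugguggug

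Exosome libraries were far shallower than cell libraries. They held 535442 to 587783 gene reads in Ang exosomes and 717263 to 745311 in Con exosomes, against 9202471 to 10623090 in Ang cells and 9442962 to 11212674 in Con cells. No gene took more than 1.21% of a library. Within each group the libraries differed beyond counting noise (chi-square per degree of freedom 7.61 to 8.1 in exosomes and 24.2 to 25.8 in cells), so no pair looked like a repeat of 1 library. Separate preparations of a single culture would differ in this way too. As a check of the line, 2 of 14 cardiomyocyte markers were listed in exosomes and 8 in cells, and their summed level was low. It was 29.6 to 59.5 CPM in Ang exosomes and 15.8 to 52.8 CPM in Con exosomes, against 37.8 to 42.4 CPM in Ang cells and 35.2 to 38.0 CPM in Con cells, most of it from the transcription factor gene GATA4. The troponin gene TNNT2 had 0 to 9 reads per cell library, and TNNC1, MYH6, MYH7, MYL2, MYL7 and TBX5 had no value in the cell tables used here. All 9 fibroblast markers were listed, summing to 8240 to 8968 CPM in Ang exosomes and 7513 to 8771 CPM in Con exosomes, against 8426 to 9446 CPM in Ang cells and 9239 to 10110 CPM in Con cells. Of 13 markers of blood, endothelial and serum-borne RNA, 6 were listed in each compartment, not the same ones, led by CD68 in both. The globin genes HBA1 (0 to 13 reads) and HBA2 (0 to 9 reads per library) came next in exosomes, and VWF and PECAM1 in cells. They summed to 3.7 to 178.5 CPM in Ang exosomes and 22.9 to 105.5 CPM in Con exosomes, against 18.6 to 73.2 CPM in Ang cells and 19.5 to 23.4 CPM in Con cells. The part of these cell types in the results below was not tested. The counts are of bulk RNA, so a message held by fewer cells or vesicles and less of it in each cannot be told apart.

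Levels of the 10 messages were compared between genes per kilobase of exon, as CPM (a gene's count per 1000000 gene reads, scaled by the trimmed mean of M-values over all 12 libraries) divided by the length of the union of a gene's exons. In cells, AGO2 (18.0 ± 0.543), DROSHA (18.0 ± 6.27) and PRKRA (17.9 ± 0.467 CPM per kb; SD over 6 libraries) stood highest, at the 80.0 to 80.2 percentile of 11927 genes listed in both compartments. DICER1 (10.3 ± 2.28), XPO5 (9.67 ± 1.43) and AGO1 (8.7 ± 0.348 CPM per kb) came next. TARBP2 (4.98 ± 0.473), AGO3 (3.89 ± 0.869), DGCR8 (3.69 ± 0.942) and AGO4 (2.49 ± 1.68 CPM per kb) were lowest, AGO4 at the 22.2 percentile. The ranges over the 6 cell libraries separated only PRKRA from DICER1 and AGO1 from TARBP2; the other neighbours in this order overlapped. This depended on the length used: per kilobase of the longest transcript TARBP2 (10.9 ± 1.04) stood above AGO1 (8.81 ± 0.353 CPM per kb; SD over 6 cell libraries) without overlap, PRKRA was highest in cells, and AGO2 was separated from XPO5, the next in that order.

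In exosomes the order on the same per-kilobase scale was PRKRA (18.6 ± 4.91), DROSHA (15.7 ± 5.1), AGO1 (11.2 ± 7.28), AGO2 (10.2 ± 1.93), XPO5 (7.93 ± 2.69), DICER1 (6.26 ± 2.11), TARBP2 (5.41 ± 4.09), DGCR8 (2.97 ± 1.51), AGO4 (2.03 ± 0.661) and AGO3 (1.66 ± 0.873 CPM per kb; SD over 6 libraries). Every neighbouring pair overlapped over the 6 exosome libraries. This order too depended on the length used. Per kilobase of the longest transcript XPO5 (12.6) and TARBP2 (11.85) stood above AGO1 (11.29) and AGO2 (11.12 CPM per kb), again with all neighbours overlapping. The exosome values rest on few reads: AGO4 had 6 to 12 reads per exosome library, TARBP2 3 to 22, DGCR8 4 to 21 and AGO3 4 to 35, while AGO2 had 67 to 120. DROSHA and PRKRA stayed among the 3 highest and AGO4, AGO3 and DGCR8 among the lowest in both compartments.

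**Figure D1:**
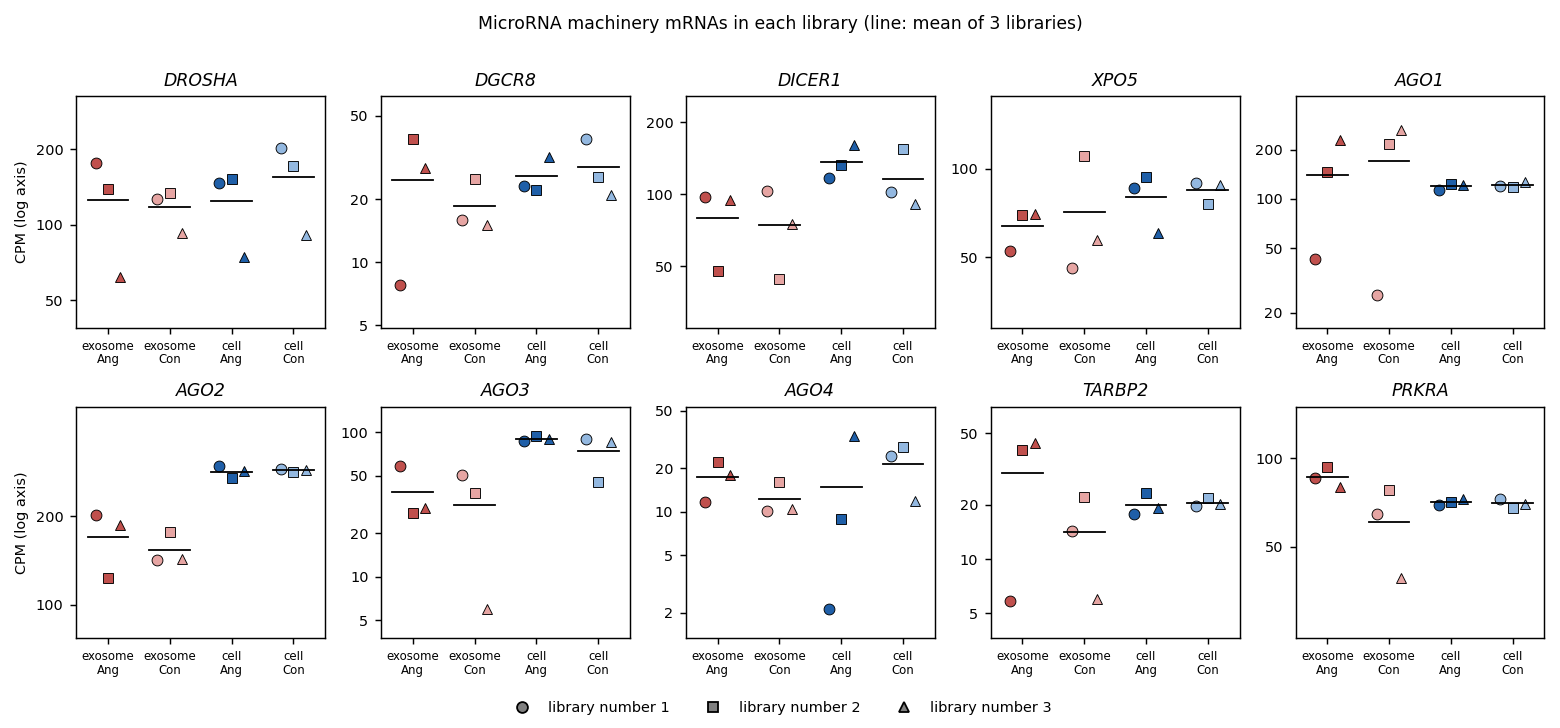
Level of each of the 10 messages in CPM (log axis, scaled over all 12 libraries) in Ang exosomes, Con exosomes, Ang cells and Con cells. Each symbol is a library, its shape gives the library number in the labels and the line is the mean of 3 libraries. AGO2 lies lower in all 6 exosome libraries than in any cell library, AGO1 is low in exosome libraries numbered 1, DROSHA is lowest in the library numbered 3 of every group, and AGO4 spreads from 2.14 to 33.3 CPM among Ang cells.

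Exosomes were compared with cells to see which of these messages were carried at a different share. AGO2 and AGO3, which encode Argonaute proteins, and DICER1, the nuclease gene, were lower in exosomes, by 1.77-fold, 2.34-fold and 1.64-fold. The other 7 did not pass: DROSHA, DGCR8, XPO5, AGO1, AGO4, TARBP2 and PRKRA. Thus 3 of the 10 were called, all lower, while over all 11811 genes tested 37.1% were called in either direction and 19.5% as lower, so the members' share of calls lay below the background in either direction and above it among lower calls, on a count of only 3. The median log2 fold change of the 10 was -0.29, against -0.15 over all genes. Scaling to library totals alone moved the median over all genes by -0.21, to -0.36; relative to the median of all genes the changes of AGO2, AGO3 and DICER1 were log2 -0.67, -1.08 and -0.57.

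AGO2 (ENSG00000123908, chromosome 8, 140520156 to 140635619, minus strand, GRCh38) was the steadiest of these. It had 202, 123 and 186 CPM in Ang exosomes and 143, 176 and 143 CPM in Con exosomes, against 296, 270.1 and 286 CPM in Ang cells and 290.1, 284 and 288 CPM in Con cells. The lowest cell library lay above the highest exosome library, a separation that 13.1% of the genes tested showed in the same direction. The mean was 162 ± 30.5 CPM in exosomes and 286 ± 8.6 CPM in cells (SD over 6 libraries each; log2 fold change -0.82, SE 0.132; edgeR, Benjamini-Hochberg adjusted p = 0.000429 over all genes). All 21 other settings kept the call, the narrowest being the Ang libraries alone (log2 -0.73, edgeR adjusted p = 0.0495), beside the Con libraries alone (log2 -0.90, edgeR adjusted p = 0.00678).

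AGO3 (ENSG00000126070, chromosome 1, 35930718 to 36072500, plus strand) encodes an Argonaute close to AGO1 and AGO4 on the same chromosome. It had 58.2, 27.6 and 30.0 CPM in Ang exosomes and 50.4, 38.2 and 6.01 CPM in Con exosomes, against 87.5, 94.5 and 89.5 CPM in Ang cells and 90.3, 45.1 and 86.3 CPM in Con cells. Exosome libraries were lower except that the Con cell library numbered 2 fell between them. The means were 35.1 ± 18.5 CPM in exosomes and 82.2 ± 18.4 CPM in cells (SD over 6 libraries each; log2 -1.23, SE 0.36; edgeR, Benjamini-Hochberg adjusted p = 0.0179). It was called under 19 of 21 other settings (adjusted p from 0.00692 to 0.205), the exceptions being the Con libraries alone (log2 -1.22, edgeR adjusted p = 0.205) and limma voom with a weight for each compartment (log2 -1.42, adjusted p = 0.14).

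AGO1 (ENSG00000092847, chromosome 1, 35869808 to 35930528, plus strand), an Argonaute gene whose protein silences targets mainly without cutting them, was the most uneven of the family in exosomes. It had 42.7, 147 and 230.3 CPM in Ang exosomes and 25.9, 217 and 266 CPM in Con exosomes, against 113, 124 and 122 CPM in Ang cells and 119.8, 119 and 127 CPM in Con cells. The exosome libraries numbered 1 were below every cell library and the other 4 above every cell library. The fitted change of log2 0.35 (SE 0.452, 95% interval -0.64 to 1.34; edgeR, Benjamini-Hochberg adjusted p = 0.572) did not pass, and limma voom with compartment weights gave it the other sign (log2 -0.09).

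AGO4 (ENSG00000134698, chromosome 1, 35808172 to 35857890, plus strand), the least abundant Argonaute message in cells, had 11.7, 22.1 and 18.0 CPM in Ang exosomes and 10.1, 16.2 and 10.5 CPM in Con exosomes, against 2.14, 8.9 and 33.3 CPM in Ang cells and 24.3, 28.0 and 11.8 CPM in Con cells. The compartments overlapped (log2 -0.29, SE 0.579, 95% interval -1.54 to 0.96; edgeR, adjusted p = 0.72). The 4 Argonaute messages are 71.8% to 76.1% identical over aligned coding bases, with no exact shared run longer than 32 bases. None of the 50-base stretches of AGO2 occurs in transcripts of another gene, against 2.5% of those of AGO1, 1.86% of AGO3 and 0.34% of AGO4. The sources used here give no read length, so sharing of shorter reads between the 4 cannot be checked.

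DICER1 (ENSG00000100697, chromosome 14, 95086228 to 95158010, minus strand) had 97.1, 47.8 and 94.1 CPM in Ang exosomes and 104, 44.0 and 75.1 CPM in Con exosomes, against 117, 133 and 160.5 CPM in Ang cells and 102, 155 and 91.4 CPM in Con cells. Both exosome libraries numbered 2 were far below any cell library, while 3 of the other 4 exosome libraries reached into the range of the Con cells. The means were 76.9 ± 25.9 CPM in exosomes and 126 ± 28.0 CPM in cells (SD over 6 libraries each; log2 -0.71, SE 0.244; edgeR, Benjamini-Hochberg adjusted p = 0.0363). It was called under 8 of 21 other settings (adjusted p from 0.00972 to 0.255), within neither label alone, and was lost when any of 8 of the 12 libraries was left out (edgeR adjusted p from 0.0514 to 0.109), namely Con cells 1 and 2, Ang cells 1, 2 and 3, Con exosomes 2 and 3, and Ang exosomes 2.

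The Microprocessor genes were not called. DROSHA (ENSG00000113360, chromosome 5, 31400497 to 31532196, minus strand) had 177, 139.6 and 62.1 CPM in Ang exosomes and 127, 134 and 93.1 CPM in Con exosomes, against 147, 153 and 74.6 CPM in Ang cells and 203, 171 and 91.0 CPM in Con cells. Its log2 fold change was -0.19 (SE 0.282, 95% interval -0.80 to 0.42; edgeR, adjusted p = 0.623). DGCR8 (ENSG00000128191, chromosome 22, 20080232 to 20111877, plus strand) averaged 21.7 ± 11.0 CPM in exosomes and 27.0 ± 6.89 CPM in cells (SD over 6 libraries each; log2 -0.33, SE 0.33, 95% interval -1.04 to 0.39; edgeR, adjusted p = 0.464). Of its exon length, 7.22% overlaps a gene on the other strand and 2.37% one on the same strand, the microRNA genes above included. Other members overlap a gene on the other strand too, the most in PRKRA (5.51%), XPO5 (4.08%) and AGO1 (2.85%). The sources used here do not say whether strand was used in counting.

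The exporter and the DICER1 cofactors were not called either. XPO5 (ENSG00000124571, chromosome 6, 43522330 to 43576075, minus strand) had 52.4, 69.8 and 70.1 CPM in Ang exosomes and 46.1, 110.1 and 57.1 CPM in Con exosomes, against 85.8, 94.1 and 60.7 CPM in Ang cells and 89.5, 75.8 and 88.2 CPM in Con cells. A single exosome library, Con 2, lay above all cell libraries. The fitted change was log2 -0.29 (SE 0.22, edgeR, adjusted p = 0.329) with it and log2 -0.52 (SE 0.176, edgeR, adjusted p = 0.0375) without it. The fit without it was the only 1 of 21 other settings in which XPO5 was called.

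PRKRA (ENSG00000180228, chromosome 2, 178431414 to 178451512, minus strand), which encodes the DICER1 partner PACT, was the most even message in cells. It averaged 73.5 ± 19.4 CPM in exosomes and 70.6 ± 1.84 CPM in cells (SD over 6 libraries each; log2 0.04, SE 0.17, 95% interval -0.33 to 0.40; edgeR, adjusted p = 0.885). TARBP2 (ENSG00000139546, chromosome 12, 53500921 to 53506431, plus strand), which encodes the related cofactor TRBP, averaged 22.1 ± 16.7 CPM in exosomes and 20.4 ± 1.94 CPM in cells (SD over 6 libraries each; log2 0.02, SE 0.388, 95% interval -0.82 to 0.86; edgeR, adjusted p = 0.972). Both small differences turned negative with scaling to library totals alone (log2 -0.18 for PRKRA and -0.19 for TARBP2).

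**Figure D2:**
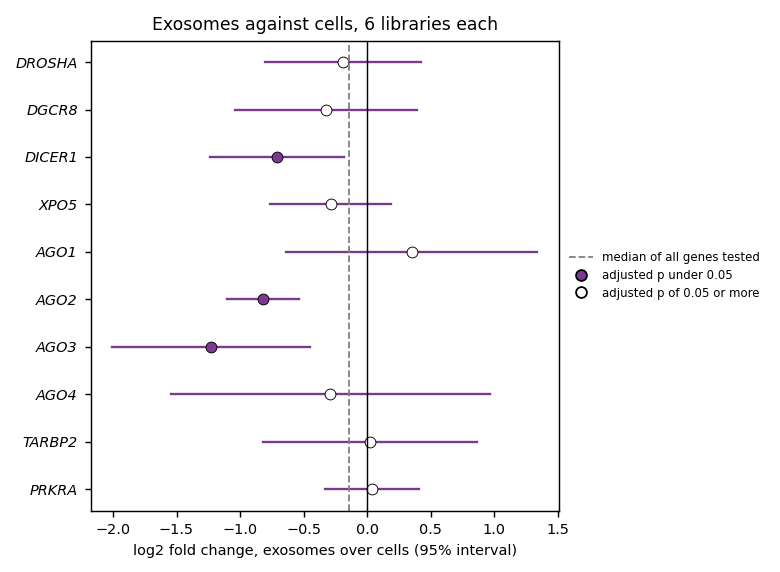
Log2 fold change of exosomes over cells for each message, with its 95% interval, from edgeR over 6 exosome and 6 cell libraries. Filled points passed an adjusted p of 0.05 (DICER1, AGO2 and AGO3), open points did not, and the dashed line marks the median of all genes tested, -0.15.

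Within the Argonaute family, the shares of AGO1 and AGO2 per length were steadier in cells than in exosomes, while that of AGO4 varied more in cells. AGO2 made up 34.3% to 63.2% of Argonaute CPM per kb in Ang exosomes and 30.2% to 61.5% in Con exosomes, against 50.7% to 59.7% in Ang cells and 53.0% to 55.2% in Con cells. AGO1 made up 15.2% to 51.4% in Ang exosomes and 12.8% to 64.1% in Con exosomes, against 24.6% to 28.2% in Ang cells and 25.0% to 27.8% in Con cells. In exosomes the largest share thus went to AGO2 in libraries numbered 1 and to AGO1 in those numbered 2 and 3 of both labels, while in every cell library AGO2 held the largest. AGO3 held 7.81% ± 5.87 in exosomes and 11.7% ± 2.66 in cells, and AGO4 8.42% ± 2.85 in exosomes and 7.35% ± 4.79 in cells (SD over 6 libraries each), differences within the spread between libraries.

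**Figure D3:**
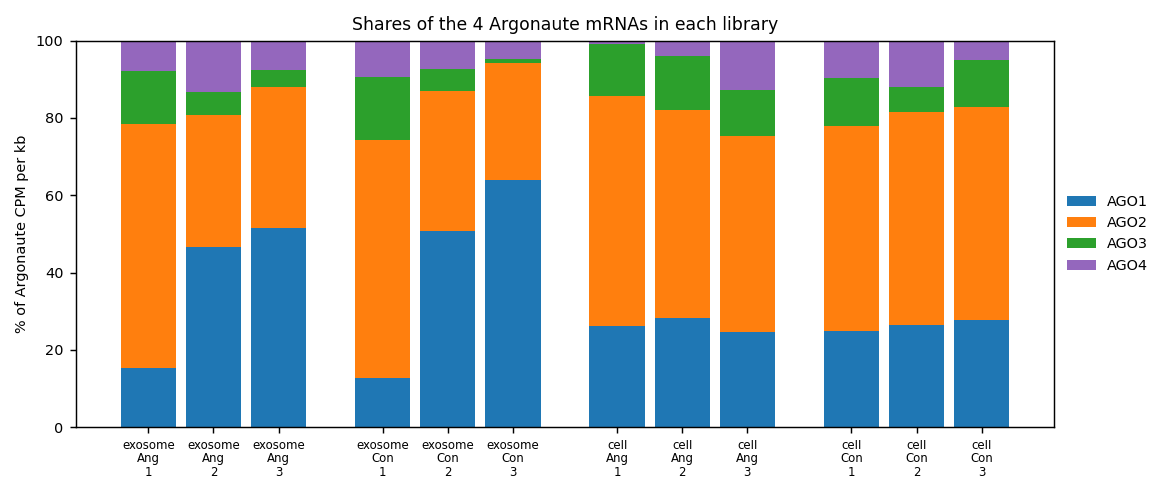
Share of each Argonaute message in the sum of the 4, in percent of CPM per kb, for each of the 12 libraries. Cell libraries are alike in AGO1 and AGO2 and differ in AGO4 (0.942% to 12.8%) and AGO3 (6.57% to 14.1%), while in exosomes AGO1 runs from 12.8% to 64.1%.

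Ang was compared with Con within each compartment to see whether the machinery differed with the label. In cells none of the 10 messages passed. Over all 13331 genes tested edgeR called 0 (0.0%, smallest adjusted p 0.121, with 816 genes at an unadjusted p under 0.05). DESeq2, run without the count filter, called 47 of 15370 genes with an adjusted p (0.306%), none of them a member. No member's groups were free of overlap, while 13.9% of genes tested showed such a separation. The unadjusted p of the members was 0.325 or more, their median log2 fold change was -0.04, against -0.0008 over all genes, and 7 of 10 were negative.

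For several members the intervals in cells were narrow. They rest on a spread between libraries that could be technical only, so they do not bound a difference between cultures. AGO2 stood at 284 ± 13.0 CPM in Ang cells and 287 ± 3.01 CPM in Con cells (SD, n = 3 each; log2 -0.02, 95% interval -0.14 to 0.10). AGO1 stood at 119.7 ± 5.7 and 122 ± 4.72 CPM in Ang and Con cells (log2 -0.03, 95% interval -0.19 to 0.12), and PRKRA at 71.0 ± 1.53 and 70.1 ± 2.35 CPM (log2 0.01, 95% interval -0.13 to 0.16). Intervals were wider for TARBP2 (log2 -0.04, -0.36 to 0.27), XPO5 (log2 -0.08, -0.53 to 0.36), DICER1 (log2 0.23, -0.36 to 0.81), DGCR8 (log2 -0.15, -0.82 to 0.53) and AGO3 (log2 0.29, -0.37 to 0.94). They were widest for DROSHA (log2 -0.32, -1.32 to 0.67) and AGO4 (log2 -0.54, -2.81 to 1.74), whose libraries differed most within a group. Without the Ang cell library numbered 3 the value of AGO4 was log2 -1.95 and that of DROSHA log2 -0.06, and without Ang cell library 1 that of AGO4 was log2 -0.03. With the library number as a block in the fit, DROSHA was at log2 -0.31 with an SE of 0.0842 (edgeR, adjusted p = 0.84), against an SE of 0.399 without it. Over all genes the numbers did not pair the libraries.

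In exosomes 9 of the 10 messages passed the count filter, all but AGO4, and none of the 9 was called (edgeR, Benjamini-Hochberg adjusted p = 0.999 for each). Over the 8327 genes tested edgeR called 1 (0.012%), and 316 genes had an unadjusted p under 0.05. DESeq2, run without the count filter, called 16 of 11965 genes with an adjusted p (0.134%). None of the genes called was a member. PRKRA counts were 44, 51 and 40 in Ang exosomes against 45, 53 and 26 in Con exosomes, in libraries of different depth. Scaled, they were 85.4, 93.7 and 80.1 CPM in Ang exosomes and 64.8, 77.8 and 39.0 CPM in Con exosomes. It was the only member whose groups did not overlap, higher in Ang exosomes (log2 0.52, SE 0.364, 95% interval -0.29 to 1.33), a separation that 5.18% of genes tested showed in that direction. It did not pass the test.

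TARBP2 had the largest fitted difference, log2 1.09 (SE 0.807, 95% interval -0.72 to 2.89). Its libraries had 5.82, 40.4 and 44.1 CPM in Ang exosomes and 14.4, 22.0 and 6.01 CPM in Con exosomes, and the groups overlapped. The others had log2 fold changes of 0.42 for DGCR8, 0.29 for AGO3, 0.15 for AGO2, 0.10 for DROSHA, 0.10 for DICER1, -0.14 for XPO5 and -0.27 for AGO1. The interval of AGO2 was -0.46 to 0.77 and that of AGO1 -2.62 to 2.09. For AGO4 the exosome libraries gave 6, 12 and 9 reads for Ang against 7, 11 and 7 for Con.

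**Figure D4:**
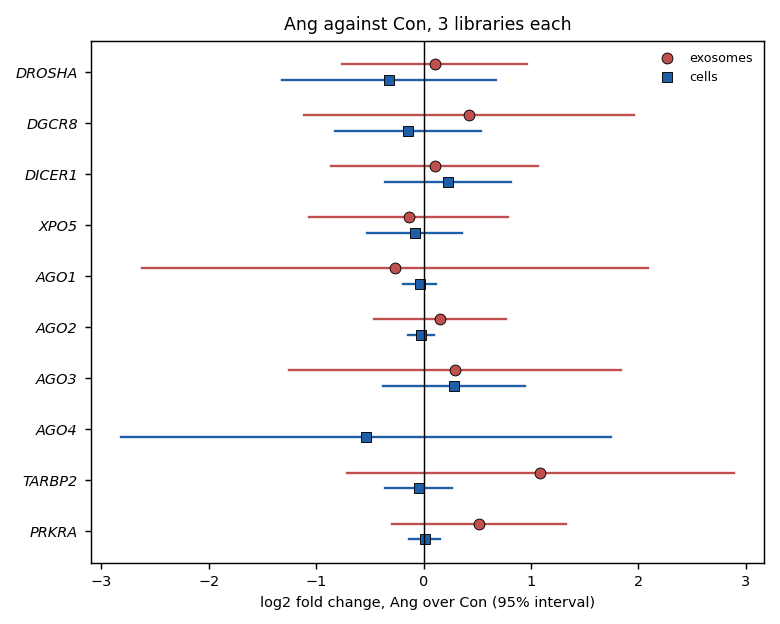
Log2 fold change of Ang over Con for each message in exosomes (circles) and in cells (squares), with 95% intervals, from edgeR on 3 libraries per group. No message passed in either compartment, exosome intervals are the wider ones for each message tested in both except DROSHA, and AGO4 was under the count filter in exosomes.

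Whether the Ang against Con difference was itself different between exosomes and cells was tested in a fit to all 12 libraries. Of 11811 genes edgeR called 3 (0.0254%). DESeq2, run without the count filter, called 368 of 11924 genes with an adjusted p (3.09%). None of the genes called was a member, and the members' unadjusted p in edgeR was 0.17 or more. The differences, exosomes minus cells, ran from log2 -0.25 (SE 0.903) for AGO1 to log2 1.12 (SE 0.771; edgeR, adjusted p = 0.767) for TARBP2, and that of AGO2 was log2 0.16 (SE 0.262, 95% interval -0.41 to 0.73).

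Some members varied more between libraries of a group than most genes of like abundance, and others less. In Ang cells AGO4 had 21, 97 and 377 reads, a 15.6-fold range in CPM. Of 4212 genes with a mean within 2-fold of its mean in cells, 0.641% had as large a range in a cell group. DROSHA ranged 2.05-fold in Ang cells and 2.23-fold in Con cells, a range that 11.0% of its 2839 peers reached, and AGO3 2.0-fold in Con cells, which 14.7% of its peers reached. AGO2, AGO1, PRKRA and TARBP2 ranged at most 1.31-fold within a cell group, near or under the median of their peers.

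In DROSHA the low library had the same number in every group. Its reads numbered 91, 76 and 31 in Ang exosomes, 88, 91 and 62 in Con exosomes, 1442, 1667 and 845 in Ang cells and 2049, 1787 and 1093 in Con cells, lowest each time in the library numbered 3. Of the 11811 genes tested, 3.83% had the same number lowest in all 4 groups. In exosomes AGO1 reads numbered 22, 80 and 115 for Ang and 18, 148 and 177 for Con, lowest in the library numbered 1 of both, as 33.4% of genes were lowest at a shared number there. Among genes within 2-fold of the exosome mean of AGO1, 5.5% had a range as large as its 10.3-fold range in Con exosomes. Both patterns were noticed after the values were seen.

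Genes that work beside the machinery were listed in 4 groups. Of 13 partners of the Microprocessor, 3 were higher in exosomes than in cells, 3 lower and 7 not called, with a median of log2 0.0017. The RNA helicase genes DDX5 (496 ± 46.2 CPM in exosomes and 1109 ± 103 CPM in cells; log2 -1.16, SE 0.0907) and DDX17 (log2 -1.96, SE 0.225) were lower, DDX17 by log2 -1.12 within the Ang libraries and -2.78 within the Con libraries. The cap-binding subunit gene NCBP2 (log2 1.31, SE 0.288) and ERH (log2 1.36, SE 0.371), whose protein binds DGCR8, were higher. Of 12 genes of export, loading and nuclear transport, 6 were higher, 2 lower and 4 not called, with a median of log2 0.35. RANBP1 (459 ± 32.6 CPM in exosomes and 224 ± 17.1 CPM in cells; log2 1.04, SE 0.0922) and RCC1 (log2 1.44, SE 0.218) act on RAN, the GTPase that powers XPO5, and were higher. The import receptor genes IPO8 (log2 -1.41, SE 0.222), whose protein binds Argonautes, and KPNB1 (log2 -0.69, SE 0.135) were lower.

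Of 29 tested genes of silencing by GW182 proteins, deadenylation and decay, out of 30 listed, 5 were higher in exosomes, 9 lower and 15 not called, with a median of log2 -0.10. The exonuclease gene XRN1 (72.9 ± 13.6 CPM in exosomes and 156 ± 2.61 CPM in cells; log2 -1.12, SE 0.12) and the deadenylase scaffold genes CNOT1 (log2 -0.97, SE 0.16) and CNOT2 (log2 -1.04, SE 0.172) were lower, and LSM14A, of processing bodies, was higher (log2 0.97, SE 0.151). Of 19 tested genes of microRNA tailing, turnover and Argonaute regulation, out of 21 named, 1 was higher, 3 lower and 15 not called, with a median of log2 -0.15. The LIM domain gene LIMD1, whose protein binds Argonautes, gave 3, 0 and 0 reads for Ang exosomes and 0, 18 and 23 for Con exosomes, against 705 to 919 reads in every cell library; it was called lower, and its fitted fold depends on the libraries at 0. The translin gene TSN (log2 -0.68, SE 0.163) and the Argonaute-associated nuclease gene SND1 (log2 -0.58, SE 0.144) were lower, and DIS3L2, a nuclease gene of uridylated precursors, was higher (log2 0.78, SE 0.214). TSN reads were 12, 13 and 14 in Ang exosomes against 43, 38 and 56 in the deeper Con exosome libraries. Its change was log2 -1.41 within the Ang libraries (SE 0.24) and log2 0.05 within the Con libraries (SE 0.218). Within the Con libraries alone NCBP2 (log2 0.89), ERH (log2 1.02), LIMD1 and SND1 (log2 -0.63) lost their calls. Within the Ang libraries alone ERH, KPNB1 (log2 -0.69), SND1 (log2 -0.51) and DIS3L2 (log2 0.52) lost theirs. With limma voom and compartment weights ERH (adjusted p = 0.123) and DIS3L2 (adjusted p = 0.115) were not called either. Over all genes 17.6% were called higher and 19.5% lower in the same comparison.

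No gene of the 4 partner lists was called between Ang and Con, with 74 tested in cells and 70 in exosomes, nor in the test of the difference between compartments. The 2 most abundant of each list had these log2 fold changes of Ang over Con in cells: 0.09 for HNRNPA1, -0.09 for DDX5, 0.05 for HSP90AA1, -0.0042 for HSP90AB1, 0.03 for PABPC1, 0.03 for CNOT1, -0.20 for FXR1 and 0.06 for SND1. In exosomes the log2 fold changes of Ang over Con were 0.58 for HNRNPA1 (SE 0.737; 0.085 without the Con library numbered 2, which had 105 reads against 706 and 765), -0.89 for HNRNPA2B1 (SE 0.549), -0.17 for HSP90AA1, -0.01 for HSP90AB1, 0.02 for PABPC1, -0.30 for CNOT1, -0.47 for FXR1 (SE 0.219) and 0.14 for XRN2. Exosomes minus cells, these differences were log2 0.48 for HNRNPA1, 0.12 for DDX5, -0.23 for HSP90AA1, -0.02 for HSP90AB1, -0.02 for PABPC1, -0.34 for CNOT1, -0.28 for FXR1 and 0.12 for SND1. Larger label differences were seen in DDX17, TSN and LIMD1, partners called between compartments that were singled out after their values were seen. DDX17 had 5256, 5084 and 5883 reads in Ang cells against 9485, 7754 and 10651 in Con cells (log2 -0.76, SE 0.102, edgeR, adjusted p = 0.449). These did not overlap, a separation that 13.9% of genes tested in cells showed in either direction. The change of DDX17 in exosomes minus that in cells was log2 1.66 (SE 0.439, edgeR, adjusted p = 0.418). For TSN the change of Ang over Con in exosomes was log2 -1.41 (SE 0.416, edgeR, adjusted p = 0.999) and exosomes minus cells log2 -1.46 (SE 0.327, edgeR, adjusted p = 0.243). The largest value, exosomes minus cells, was that of LIMD1 (log2 -3.38, SE 1.33, edgeR, adjusted p = 0.558). It rests on the few exosome reads given above, some of them 0. None of these passed.

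AGO3, the member with the largest called change between compartments, was set beside all genes at or above the median level. The 5 whose log2 CPM followed it most closely over the 12 libraries were TULP3 (Pearson r 0.963), LRP8 (0.949), RFC1 (0.949), EPS8 (0.948) and SMC6 (0.947). The 12 points share compartment, kit and depth, so these values describe the libraries and carry no test. In exosomes against cells all 5 had negative changes, from log2 -0.76 (SE 0.365) for RFC1, which did not pass, to log2 -1.72 (SE 0.322) for SMC6. They were picked for following AGO3, itself lower in exosomes, so this shared direction comes largely from the choice and carries no test either.

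Circular RNAs typically arise when an exon end is joined to an earlier exon start. Of the members only XPO5 and AGO2 had any listed. The share of all genes with a listed circle was not counted. Of 5179 circles listed in cells and 939 in exosomes, 3 lay within a member on its strand, all listed in cells only. One in XPO5 (chromosome 6, 43555173 to 43557902) had 5 junction reads in Con cells 3 and 0 in the other 5 cell libraries. The other XPO5 circle (43533907 to 43551453) had 2 reads, also in Con cells 3, and the one in AGO2 (chromosome 8, 140531423 to 140585311) had 2 in Con cells 2. Both ends lay on annotated exon boundaries only in the second XPO5 circle; the first had neither end there and the AGO2 circle only 1. Each was seen in a single library, too few for a comparison.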

How the data were processed

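The authors deposited read counts per Ensembl gene, as whole numbers, and counts of back-splice junction reads for circular RNAs. GRCh38, HISAT2 and StringTie are named in the submitters' processing notes, with no version or role; the counter, its strand setting and the annotation release are not stated in the labels or files. No listed gene had fewer than 7 reads summed over a compartment.

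Symbols were matched for 15365 of 15381 genes listed in cells and 11963 of 11973 in exosomes, and exon lengths came from GENCODE release 29. Counts were tested with edgeR 4.0.16 in R 4.3.3 (robust quasi-likelihood F test, two-sided, trimmed mean of M-values scaling) after filterByExpr (minimum count 10, minimum total 15), with Benjamini-Hochberg adjustment over all genes tested and a threshold of 0.05. Ang was set against Con within a compartment. Exosomes against cells (the mean of both labels), and the difference between compartments in the Ang against Con change, came from a 4-group fit to the 11940 genes listed in both. Intervals are 95%. Alternatives included DESeq2 1.42.0, limma 3.58.1 (voom) and leaving out each library. The scripts were tested on simulated data. The members and lists were chosen with earlier results of these data known. The text names every member and, of each partner list, up to 4 called genes by smallest p, or the 2 most abundant where none was called.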

Additional observations from a re-analysis of the deposited data

How the results depend on the processing

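Exosome libraries held 3 to 177 reads per member. Called genes in exosomes against cells were 2395 within Con libraries (1 member) and 2126 within Ang libraries; voom with compartment weights called 1 member. DESeq2 called 47 genes between Ang and Con in cells, 16 in exosomes and 368 for the difference between compartments; without a count filter 3 were called in exosomes, and thinned cell libraries gave 1 for the difference. The numbers of the libraries did not pair them (same-number correlations of deviations from -0.0438 to 0.0166), and only between Con exosomes and Con cells did all 3 libraries correlate best with their own number. With the replicate block 0 genes were called between Ang and Con in exosomes, 3114 in exosomes against cells (2 members, DICER1 no longer among them) and 1 for the difference. The cause was not tested for any of these or of the following.

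Signs turned only for members or partners that were not called, apart from TSN. In exosomes against cells these were, on the log2 scale, PRKRA with library totals (-0.18), Con libraries (-0.20) and thinned cells (-0.016); TARBP2 with library totals (-0.19), the block (-0.15), Con libraries (-0.53) and voom (-0.21); AGO4 with the block (0.068), Ang libraries (0.23) and voom (0.16); DROSHA with Ang libraries (0.024); AGO1 with voom (-0.085); and TSN with Con libraries (0.053). HSP90AB1 turned in cells with library totals (0.000188). For the difference between compartments these were AGO3 with DESeq2 (0.023), RLE size factors (0.021), the block (0.10) and voom (0.29); XPO5 with the block (0.021), voom (0.053) and thinned cells (0.041); AGO1 with voom (0.027); HSP90AB1 with DESeq2 (0.0105) and RLE (0.0104); and PABPC1 with DESeq2 (0.0052) and RLE (0.0061).

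Per kilobase of the longest transcript in place of all exons, mean levels in exosomes and cells were 23.0 and 26.4 CPM for DROSHA, 4.62 and 5.75 for DGCR8, 12.6 and 15.3 for XPO5, 11.8 and 10.9 for TARBP2, and 39.7 and 38.1 for PRKRA, and 19.6 in cells for AGO2; AGO1, at 8.81 in cells, then stood below TARBP2.

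Leaving out each library in turn gave 0 to 3 called genes between Ang and Con in cells, 1 to 4 in exosomes and 1 to 17 for the difference. In cells, AGO4 ran from log2 -1.95 to -0.028 and DROSHA from -0.60 to -0.057, both keeping their sign. With the block AGO4 was at -1.18 and DROSHA at -0.31. Members or partners whose sign depended on a library, none of them called, had these log2 ranges. In cells they ran from -0.063 to 0.0027 for AGO1, -0.055 to 0.0084 for AGO2, -0.33 to 0.14 for DGCR8, -0.010 to 0.034 for PRKRA, -0.17 to 0.033 for TARBP2, -0.22 to 0.084 for XPO5, -0.17 to 0.000514 for DDX5, -0.11 to 0.22 for HSP90AA1, -0.011 to 0.000238 for HSP90AB1 and -0.33 to 0.0045 for FXR1. In exosomes they ran from -0.83 to 0.21 for AGO1, -0.19 to 0.81 for AGO3, -0.22 to 0.43 for DROSHA, -0.056 to 0.84 for DGCR8, -0.18 to 0.42 for DICER1, -0.37 to 0.30 for XPO5, -0.090 to 0.061 for HSP90AB1, -0.048 to 0.050 for PABPC1 and -0.14 to 0.40 for XRN2. In exosomes against cells they ran from -0.52 to 0.44 for AGO4, -0.079 to 0.15 for PRKRA and -0.22 to 0.26 for TARBP2. For the difference they ran from -0.50 to 0.51 for AGO3, -0.31 to 0.38 for XPO5, -0.41 to 0.18 for DICER1, -0.80 to 0.23 for AGO1, -0.099 to 0.051 for HSP90AB1, -0.080 to 0.0062 for PABPC1, -0.0085 to 0.87 for HNRNPA1 and -0.043 to 0.39 for SND1.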
